A study of Mus musculus with 18 samples.

Results

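Genes for the receptors of glutamate, GABA, glycine and, for the nicotinic class, acetylcholine were followed in embryonic mouse spinal cord. They were found by name in the authors' deposited coexpression table, as the AMPA, delta, kainate and NMDA receptor genes (Gria, Grid, Grik and Grin), the metabotropic glutamate receptor genes (Grm), the GABA-A and GABA-B receptor genes (Gabr and Gabbr), the glycine receptor genes (Glra and Glrb) and the nicotinic receptor genes (Chrn). The search gave 69 of the 23787 named genes tested. They fall into 19 GABA-A, 2 GABA-B, 5 glycine, 4 AMPA, 5 kainate, 2 delta, 7 NMDA, 8 metabotropic glutamate and 16 nicotinic receptor genes, the last split into 11 of the neuronal and 5 of the muscle type. The remaining gene codes for a protein that binds delta receptors and is no receptor itself.

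The embryos carried an Aldh1l1-GFP transgene on a Swiss-Webster background. Aldh1l1 codes for an enzyme of folate metabolism that is widely used as a marker of astrocytes and their precursors, and GFP marks the cells that use its promoter. Sorted GFP cells were measured on 3 arrays at E13.5 (embryonic age in days), on 2 at E14.5 and on 3 at a late age, of which 2 were E17.5 and 1 was E18.5. All live cells sorted from cords of the same transgenic stock were measured on 3 arrays per age, the late one with the same mix of E17.5 and E18.5. In both sorts the E18.5 array is replicate 3 of the late age. The titles call these samples all live cells, whereas another label gives whole spinal cord as their cell type and a shared treatment text names cells without GFP. The titles were followed. GFP cells are then among the all live cells, which narrows every difference between the sorts. An 18th array, which its own title calls mislabeled, entered no comparison. The replicates are called biological, but no animal, litter, pooling or sex is given in the sources used here, so the p-values measure the spread between these arrays.

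As background, AMPA, kainate and NMDA receptors are cation channels that glutamate opens, and delta receptors belong to the same gene family but act mainly as adhesion and signalling proteins at synapses. GABA-A and glycine receptors are chloride channels built from several subunits, in which the gamma subunit sets where a GABA-A receptor sits and how it answers benzodiazepines, and alpha2 is the main alpha subunit of the embryonic glycine receptor. In embryonic spinal cord GABA and glycine can depolarise cells, because immature neurons hold much chloride. Metabotropic glutamate and GABA-B receptors act through G proteins, and Grm3 and Grm5 are the metabotropic glutamate receptors best known from astrocytes. Nicotinic receptors of the muscle type sit at the neuromuscular junction, and those of the neuronal type in neurons of brain, cord and ganglia.

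Expression was given on a log2 scale, 1 value per gene and array, so a difference of 1 is a factor of 2. The array medians lay between 7.67 and 7.78. Of the 69 receptor genes, 27 lay below the array median on all 17 arrays, 16 lay above it on all 17, and 26 lay on both sides. Differences were tested with limma in 1 fit over all 17 arrays, with p-values adjusted over the 23787 genes (Benjamini-Hochberg), and a gene was called at an adjusted p under 0.05. Values after ± are standard errors unless an SD is named, and levels of different genes, which come from different probes, are not set against each other.

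The sort marker followed its label. Aldh1l1 was higher in GFP cells than in all live cells by 2.19 ± 0.12 at E13.5, by 1.80 ± 0.14 at E14.5 and by 0.96 ± 0.12 at the late age. Of 20 astrocyte and radial glia markers, a list that includes Aldh1l1, 15, 16 and 13 were higher in GFP cells at the 3 ages and none was lower. Pan-neuronal markers ran the other way: of 23 measured, 20, 22 and 19 were lower in GFP cells at the 3 ages. Their mean level over the list was 9.05 to 9.12 on the GFP arrays and 10.06 to 10.16 on the all live arrays at E13.5, 8.78 to 8.83 and 10.23 to 10.38 at E14.5, and 8.29 to 8.46 and 9.35 to 9.57 at the late age. Of 10 genes of spinal transmitter identity, 5, 6 and 5 were lower. Of 10 microglial markers, 8, 10 and 10 were lower, and of 6 erythroid markers 5, 5 and 3 were lower. Of 12 oligodendrocyte precursor markers, 3 were higher and 1 lower at E13.5, 2 were higher and 2 lower at E14.5, and 9 were lower at the late age. Of 13 endothelial and mural markers 4, 4 and 10 were lower, with 1 higher at each early age. No skeletal muscle marker of 10 was called, motor neuron markers had 2, 2 and 0 of 10 lower, and Schwann cell and ganglion markers 4, 3 and 4 of 10. In such bulk samples, fewer cells of a type and less RNA per cell cannot be told apart.

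GFP cells differed from all live cells in 39 of the 69 receptor genes at 1 age or more, beside 27.7% of all genes tested. At E13.5, 29 receptor genes were called, 7 higher and 22 lower in GFP cells, beside 19.1% of all genes tested, of which 11.1% were higher and 8.0% lower. At E14.5, 31 were called, 8 higher and 23 lower, beside 18.52% of all genes, 10.3% higher and 8.22% lower. At the late age 17 were called, 5 higher and 12 lower, beside 9.29% of all genes, 4.61% higher and 4.68% lower. As shares of the 69 receptor genes, the lower calls came to 31.9%, 33.3% and 17.4% at the 3 ages and the higher calls to 10.1%, 11.6% and 7.25%. Most pan-neuronal markers were lower in the same comparisons, and their part in the lower calls was not tested. The medians over the 69 genes were -0.15, -0.13 and -0.01, against -0.04, -0.03 and 0.04 over all genes. At E13.5 the split depended on scaling, with 11 higher and 18 lower after a shift of every array to a common median and 10 higher and 17 lower after quantile normalization. Leaving out 1 array at a time kept 21 of the 29 calls at E13.5, 23 of the 31 at E14.5 and 13 of the 17 at the late age.

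**Figure D1:**
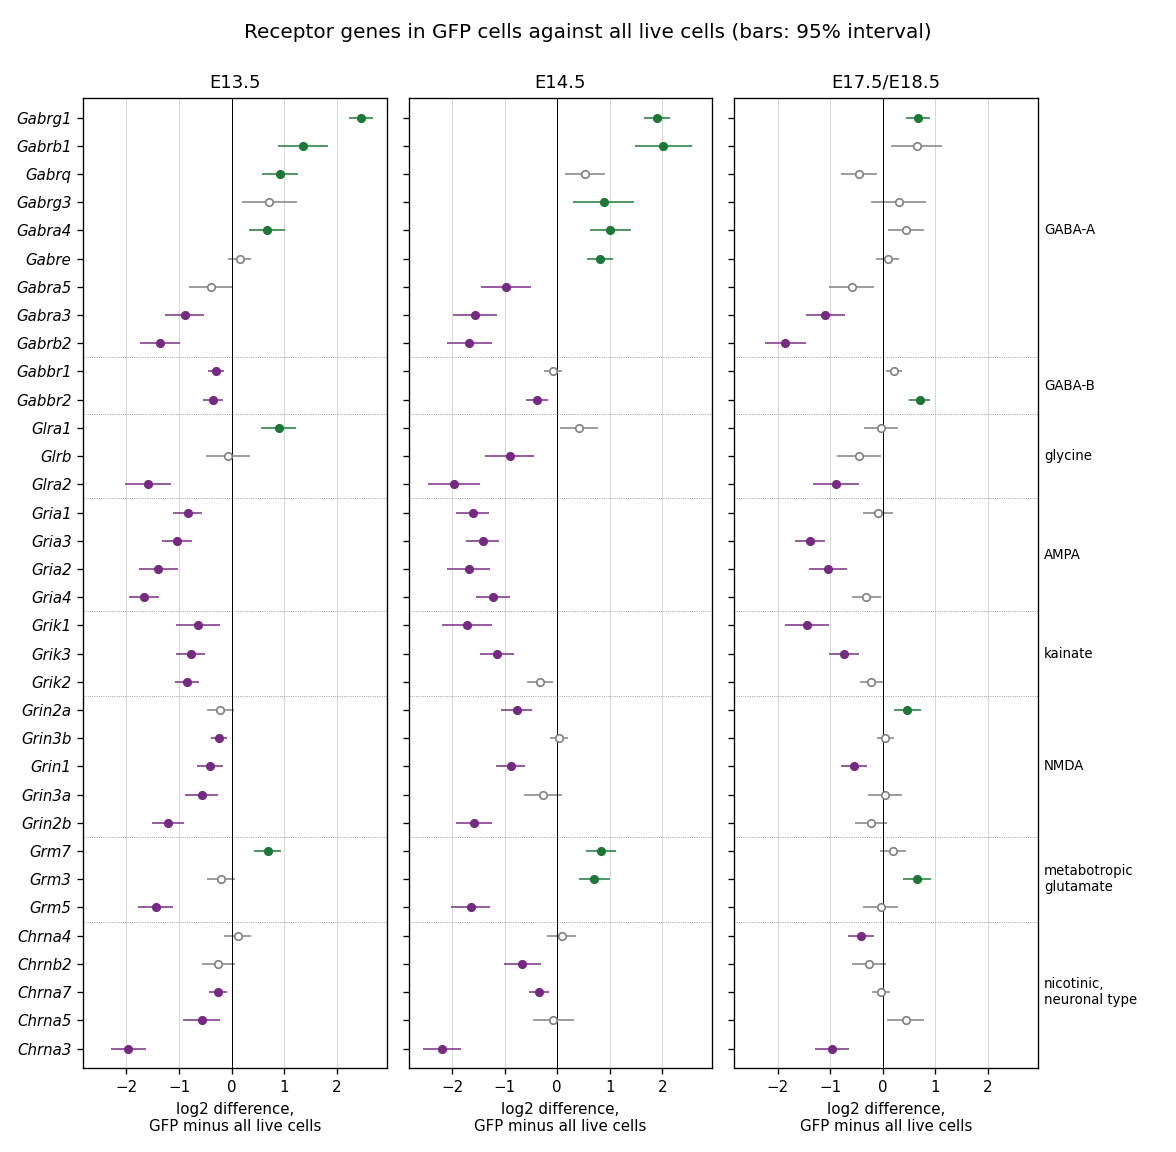
Difference between GFP cells and all live cells (x axis, log2) for 34 of the 39 receptor genes called at 1 age or more, with 1 panel per age and lines for the 95% interval from the fit. Green points were higher and purple points lower in GFP cells, and open points were not called. Gabrg1 lies to the right of 0 at all 3 ages, most AMPA, kainate and NMDA genes lie to the left at both early ages, and Gabbr2 and Grin2a cross to the right at the late age.

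The genes sorted by pattern as follows. Higher in GFP cells at every age was, among others, Gabrg1, and at both early ages Gabra4, Gabrb1 and Grm7. Lower at all 3 ages were 11 genes, beside 2.25% of all genes, among them Gabra3 and Gabrb2 of the GABA-A receptors, Glra2, the AMPA genes Gria2 and Gria3, the kainate genes Grik1 and Grik3, the NMDA gene Grin1 and the nicotinic gene Chrna3. A further 5, beside 2.83% of all genes, were lower at both early ages and not called late: Gria1, Gria4, Grin2b, Grm5 and Chrna7. Gabbr2 and Grin2a were lower at an early age and higher at the late age. No receptor gene was higher early and lower late. The shares of all genes that changed sides in these ways were not counted, so no weight is put on either pattern. The 30 genes without a call at any age include all 5 muscle-type nicotinic genes, Grik4, Grik5, Grin2c, Grin2d, the rho subunits Gabrr1, Gabrr2 and Gabrr3, and Grm2, Grm4, Grm6 and Grm8.

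The 250 bases upstream of the RefSeq start site (GRCm38.p6) are printed for 1 gene of each of 3 patterns: Gabrg1, higher in GFP cells at all ages, Grm3, which rose in GFP cells at each step of age, and Gria2, lower in GFP cells at all ages. Capitals mark the SOX core letters CATTGT or, on the other strand, ACAATG.
Gabrg1, chr5:70842618-70842867, minus strand: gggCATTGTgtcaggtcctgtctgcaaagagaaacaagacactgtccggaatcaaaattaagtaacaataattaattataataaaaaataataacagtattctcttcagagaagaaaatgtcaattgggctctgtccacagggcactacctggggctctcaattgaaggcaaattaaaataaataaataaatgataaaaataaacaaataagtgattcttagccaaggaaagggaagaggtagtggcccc
Grm3, chr5:9725353-9725602, minus strand: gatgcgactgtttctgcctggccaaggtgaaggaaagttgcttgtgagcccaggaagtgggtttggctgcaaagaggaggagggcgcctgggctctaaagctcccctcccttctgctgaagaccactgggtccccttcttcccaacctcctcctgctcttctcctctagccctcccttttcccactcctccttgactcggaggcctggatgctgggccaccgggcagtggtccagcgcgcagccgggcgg
Gria2, chr3:80802836-80803085, minus strand: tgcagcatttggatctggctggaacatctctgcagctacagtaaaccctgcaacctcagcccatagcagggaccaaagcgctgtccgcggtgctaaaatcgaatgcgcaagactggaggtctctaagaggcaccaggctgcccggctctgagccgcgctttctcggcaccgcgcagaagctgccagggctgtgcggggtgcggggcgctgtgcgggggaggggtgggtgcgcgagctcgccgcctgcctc
Gabrg1 has the SOX letters once near the upstream end of this window, and the windows of Grm3 and Gria2 hold none. Guanine and cytosine make up 35.6% of the Gabrg1 window, 62.4% of that of Grm3 and 64.8% of that of Gria2. Of the 49 receptor genes with such a window in the table, 6 hold the SOX letters: Chrna1, Chrna3, Chrna9, Chrng, Gabrg1 and Grin1, beside 12.2% of the 27025 genes of the table. The antioxidant response letters TGACNNNGC or GCNNNGTCA, searched because the study's title names Sox9 and Nfe2l1, stood in 10 of the 49 windows and in 11.5% of all genes, and in none of the 3 windows printed. A match of letters is no measured binding site.

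Among the 19 GABA-A receptor genes, Gabrg1 was the one called higher in every comparison of the sorts. Gabrg1, whose gamma1 subunit is known from glia in brain, stood at 10.06, 10.00 and 9.99 on the GFP arrays at E13.5, against 7.63, 7.67 and 7.35 on the all live arrays. At E14.5 it stood at 10.47 and 10.37 against 8.42, 8.67 and 8.48, and at the late age at 11.17, 11.10 and 11.50 against 10.59, 10.62 and 10.56. All GFP arrays lay above all all live arrays of their age. The difference was 2.47 ± 0.11, or 5.53-fold (adjusted p = 1.9e-10), 1.90 ± 0.12 (adjusted p = 2.1e-08) and 0.67 ± 0.11 (adjusted p = 0.000457) at the 3 ages. Gabrg3 stood at 7.93, 8.34 and 8.18 against 7.32, 7.51 and 7.47 at E13.5, a difference of 0.72 ± 0.25 that missed the threshold (adjusted p = 0.0507), and at 8.47 and 9.41 against 7.84, 7.86 and 8.46 at E14.5, a difference of 0.88 ± 0.27 that passed it (adjusted p = 0.0321). The GFP arrays lay higher at both early ages and overlapped the all live arrays late. That E14.5 call was lost without GFP replicate 2 (adjusted p = 0.479), all live replicate 1 (0.106) or all live replicate 2 (0.0957).

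The beta subunits, which most GABA-A receptors need to assemble, were found on both sides. Gabrb1 stood at 8.65, 9.02 and 8.23 in GFP cells and 6.77, 7.46 and 7.58 in all live cells at E13.5, and at 9.86 and 9.71 and 7.28, 7.82 and 8.18 at E14.5. It was higher by 1.36 ± 0.23 and 2.02 ± 0.26 (adjusted p of 0.00034 and 1.75e-05), which is 4.07-fold at E14.5. At the late age it stood at 10.11, 10.17 and 10.44 against 9.46, 9.61 and 9.72, still without overlap, with a difference of 0.65 ± 0.23 that was not called (adjusted p = 0.0935). Gabrb2 was lower in GFP cells by -1.36 ± 0.18, -1.67 ± 0.20 and -1.85 ± 0.18 at the 3 ages. Its late values were 6.19, 5.98 and 6.46 in GFP cells and 7.64, 8.16 and 8.38 in all live cells (adjusted p = 3.69e-06). 

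Of the alpha subunits, which with beta form the GABA site, only Gabra4 was higher in GFP cells. It stood at 7.80, 7.05 and 7.49 against 6.96, 6.67 and 6.69 at E13.5 and at 8.52 and 8.26 against 7.26, 7.50 and 7.38 at E14.5, without overlap. The differences were 0.67 ± 0.16 and 1.01 ± 0.18 (adjusted p of 0.0072 and 0.000589), and 0.44 ± 0.16 at the late age, which was not called (adjusted p = 0.112). Gabra3 was lower by -0.89 ± 0.18, -1.56 ± 0.20 and -1.09 ± 0.18, with 7.73 and 7.40 in GFP cells against 9.04, 8.98 and 9.35 in all live cells at E14.5. Gabra5 was lower at E14.5, by -0.98 ± 0.23, a call lost without GFP replicate 2 of that age (adjusted p = 0.0629). Gabra2 was called at no age and Gabra6, a subunit of cerebellar granule cells, lay below the array median throughout. Of the remaining subunits, Gabrq (theta) was higher by 0.91 ± 0.16 at E13.5, at 7.66, 7.60 and 7.70 against 6.39, 6.77 and 7.05, and by 0.53 ± 0.18 at E14.5, which narrowly missed the threshold (adjusted p = 0.0501). Gabre (epsilon) was higher at E14.5 by 0.81 ± 0.12, at 7.60 and 7.46 against 6.62, 6.73 and 6.83. Gabre and Gabra5 lay below the array median on all 17 arrays. Over the family of 19, 4 were higher and 4 lower at E13.5, beside 11.1% and 8.0% of all genes. At E14.5 they were 5 and 6, beside 10.3% and 8.22%. At the late age 4 were lower, beside 4.68%, and the 1 higher (5.26% of the family) is near the 4.61% of all genes.

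**Figure D2:**
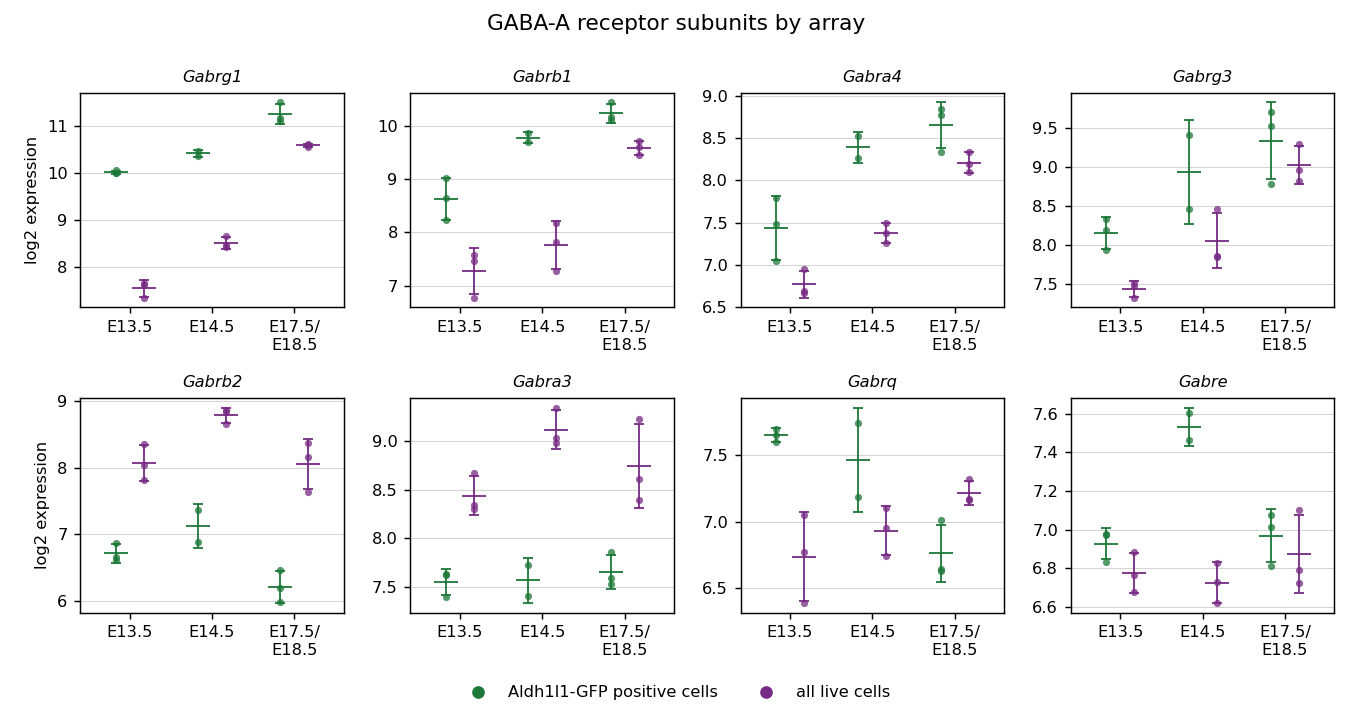
Log2 expression (y axis, with a range of its own in each panel) of 8 GABA-A subunit genes on every assigned array, by age (x axis), with GFP cells in green left of all live cells in purple. Points are arrays, long ticks are means and whiskers are SD over 3 arrays, or 2 for GFP cells at E14.5. The upper row holds genes that lay higher in GFP cells at both early ages, and in the lower row Gabrb2 and Gabra3 lay lower at all 3 ages.

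GABA-B receptors are pairs of Gabbr1, which binds GABA, and Gabbr2, which couples to the G protein. Gabbr2 stood in GFP cells at 7.83, 7.96 and 7.76 at E13.5, 8.61 and 8.28 at E14.5 and 10.28, 10.37 and 10.40 at the late age. In all live cells it stood at 8.09, 8.25 and 8.27, then 8.91, 8.78 and 8.79, then 9.63, 9.57 and 9.73. GFP arrays thus lay below all live arrays at the early ages and above them at the late age. The differences were -0.35 ± 0.09 and -0.38 ± 0.10 at the early ages (adjusted p of 0.011 and 0.0141) and 0.71 ± 0.09 at the late age (adjusted p = 7.74e-05). The 2 early calls were small and each was lost without an array: at E13.5 without GFP replicate 3 (adjusted p = 0.0538) or all live replicate 3 (0.0526), and at E14.5 without GFP replicate 2 (0.298) or all live replicate 1 (0.0571). The late call was kept throughout. Gabbr1 was lower by -0.30 ± 0.07 at E13.5 (adjusted p = 0.00874, and 0.0561 without all live replicate 3) and stood 0.22 ± 0.07 apart at the late age, which was not called (adjusted p = 0.0829).

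The glycine receptor genes moved apart from each other. Glra1, the alpha subunit that replaces alpha2 as the cord matures, stood at 8.95, 8.74 and 8.80 in GFP cells against 8.01, 8.02 and 7.78 in all live cells at E13.5, higher by 0.90 ± 0.15 without overlap (adjusted p = 0.000443). At E14.5 it stood at 7.93 and 8.03 against 7.59, 7.80 and 7.30, and at the late age at 6.74, 7.03 and 6.71 against 6.47, 7.17 and 6.94. The differences of 0.42 ± 0.17 and -0.03 ± 0.15 were not called (adjusted p of 0.115 and 0.939). Glra2 stood at 7.01, 6.86 and 6.99 against 8.33, 8.61 and 8.67 at E13.5 and at 7.31 and 7.26 against 9.40, 9.23 and 9.08 at E14.5, lower by -1.58 ± 0.21 and -1.96 ± 0.23 (adjusted p of 2.97e-05 and 9.05e-06). At the late age the sorts overlapped, with 6.84, 5.91 and 6.31 against 7.40, 6.73 and 7.59. That late difference of -0.88 ± 0.21 was called (adjusted p = 0.011), and was lost without GFP replicate 2 (0.0652) or all live replicate 3 (0.0651). Glrb, the beta subunit that ties the receptor to the gephyrin scaffold, was lower at E14.5 by -0.90 ± 0.22, at 8.34 and 7.74 against 8.90, 9.32 and 8.62. Without GFP replicate 2 its adjusted p was 0.165. Glra3 and Glra4 were not called and lay below the array median.

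All 4 AMPA receptor genes were lower in GFP cells at both early ages. Gria2, whose edited subunit makes the channel impermeable to calcium, stood at 9.71, 9.72 and 9.63 against 11.08, 11.03 and 11.13 at E13.5, at 9.94 and 9.87 against 11.43, 11.76 and 11.57 at E14.5, and at 9.61, 9.79 and 10.51 against 10.86, 10.88 and 11.31 at the late age. It was lower by -1.39 ± 0.17, -1.68 ± 0.19 and -1.04 ± 0.17 (adjusted p of 1.63e-05, 6.39e-06 and 0.000693), and no GFP array overlapped. Gria3 was lower by -1.04 ± 0.13, -1.41 ± 0.15 and -1.38 ± 0.13, with 8.83, 8.63 and 8.56 against 9.76, 9.99 and 10.41 at the late age. For Gria1 and Gria4 the difference was smaller at the late age and was not called. Gria1 stood at 7.57 and 7.22 against 8.91, 8.96 and 9.13 at E14.5 and at 8.81, 8.43 and 8.43 against 8.79, 8.41 and 8.73 at the late age, when the sorts overlapped. Its differences were -0.84 ± 0.13, -1.61 ± 0.15 and -0.09 ± 0.13, the last not called (adjusted p = 0.776). Gria4 stood at 7.57, 7.78 and 7.45 against 9.28, 9.19 and 9.34 at E13.5, a difference of -1.67 ± 0.13 (adjusted p = 1.43e-07), and at 9.55, 9.50 and 9.64 against 9.55, 9.87 and 10.20 at the late age, a difference of -0.31 ± 0.13 that was not called (adjusted p = 0.18).

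Kainate receptor genes were lower or not called. Grik1 was lower by -0.64 ± 0.20, -1.71 ± 0.22 and -1.43 ± 0.20, and Grik3 by -0.78 ± 0.13, -1.15 ± 0.15 and -0.73 ± 0.13. At E14.5 Grik1 stood at 6.51 and 6.35 in GFP cells and at 8.08, 8.17 and 8.19 in all live cells. The Grik1 call at E13.5 was lost without any of 5 of the 6 arrays of that age, GFP replicate 1 being the exception (adjusted p up to 0.143), and the other 2 were kept. Grik2 was lower by -0.85 ± 0.10 at E13.5, at 9.63, 9.54 and 9.44 against 10.34, 10.31 and 10.51, and was not called later. Grik4 and Grik5, which bind glutamate with high affinity and need a partner from Grik1 to Grik3, were called at no age.

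Of the delta receptor genes, Grid1 did not separate the sorts at any age, with differences of 0.02, 0.14 and 0.06.

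Of the NMDA receptor genes, Grin1, the subunit that every NMDA receptor holds, was lower by -0.42 ± 0.12, -0.88 ± 0.13 and -0.55 ± 0.12 at the 3 ages. The E13.5 call was lost without GFP replicate 1 (adjusted p = 0.06), GFP replicate 2 (0.0951) or all live replicate 3 (0.112), and with both other scalings. Grin2b, the main embryonic glutamate-binding subunit, stood at 6.81, 6.75 and 7.03 against 7.92, 8.11 and 8.18 at E13.5 and at 7.25 and 7.20 against 8.91, 8.67 and 8.85 at E14.5, without overlap. It was lower by -1.21 ± 0.14 and -1.58 ± 0.16 (adjusted p of 1e-05 and 1.6e-06). At the late age it stood at 7.15, 7.53 and 7.82 against 7.82, 7.49 and 7.86, with overlap, a difference of -0.23 ± 0.14 that was not called (adjusted p = 0.402). Grin2a, the subunit that joins later in development, changed sides. It stood at 5.96 and 5.67 against 6.50, 6.50 and 6.75 at E14.5, lower by -0.77 ± 0.14 (adjusted p = 0.000596), and at 6.84, 6.70 and 6.33 against 6.23, 6.10 and 6.12 at the late age, higher by 0.47 ± 0.12 (adjusted p = 0.0222). All of these Grin2a values lie below the array median. The late call was lost without GFP replicate 1 (0.118) or 2 (0.0807), or all live replicate 2 (0.0634) or 3 (0.0682). Grin3a, a subunit that lowers calcium flow, was lower at E13.5 by -0.57 ± 0.15 (adjusted p = 0.0126), a call lost without GFP replicate 1 (0.0579) or all live replicate 3 (0.0733). Grin3b was lower there by -0.23 ± 0.07, a call lost without any of 4 of the 6 arrays and with both other scalings (adjusted p up to 0.176). Grin2c and Grin2d were not called.

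The metabotropic glutamate receptors showed 3 patterns. Grm5, which couples to calcium release and is prominent in young astrocytes and many neurons, stood at 7.91, 7.84 and 7.74 in GFP cells against 9.06, 9.28 and 9.47 in all live cells at E13.5, and at 8.26 and 8.23 against 9.87, 9.95 and 9.84 at E14.5. It was lower by -1.44 ± 0.16 and -1.64 ± 0.18 without overlap (adjusted p of 4.46e-06 and 3.15e-06), and at the late age, with 9.45, 9.70 and 9.26 against 9.74, 9.03 and 9.74, the sorts overlapped (-0.04 ± 0.16, adjusted p = 0.931). Grm3, an inhibitory receptor of astrocytes and neurons, overlapped at E13.5, with 9.22, 9.18 and 8.88 against 8.99, 9.45 and 9.45. It was higher in GFP cells afterwards, at 10.27 and 10.14 against 9.44, 9.69 and 9.36 at E14.5 and 11.00, 11.09 and 11.16 against 10.39, 10.52 and 10.38 at the late age. These differences were 0.71 ± 0.14 and 0.65 ± 0.13 (adjusted p of 0.00134 and 0.00252). Grm7, an inhibitory receptor of presynaptic terminals in neurons, was higher by 0.69 ± 0.12 and 0.83 ± 0.14 at the early ages (adjusted p of 0.000491 and 0.000236), at 9.39 and 9.40 against 8.50, 8.50 and 8.69 at E14.5. Its late difference of 0.20 ± 0.12 was not called (adjusted p = 0.389). Grm2, Grm4, Grm6 and Grm8 were called at no age.

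**Figure D3:**
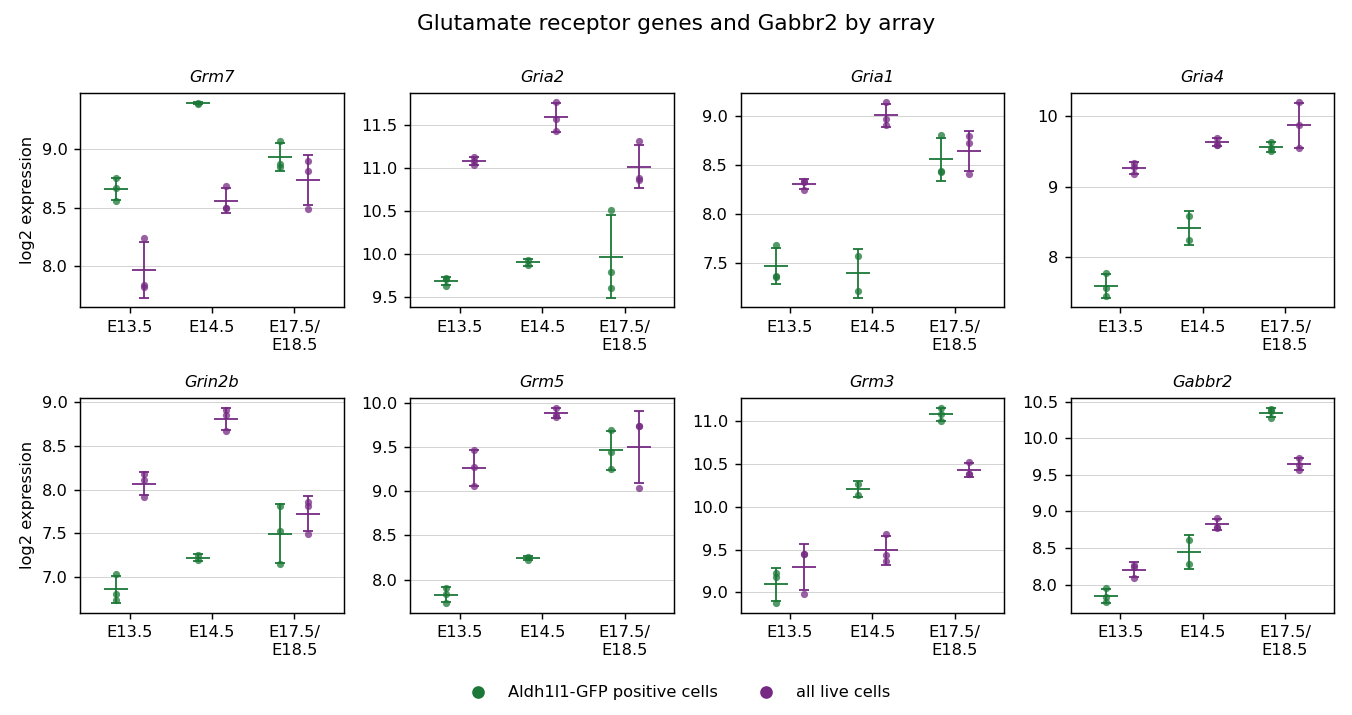
Log2 expression (y axis, with a range of its own in each panel) of 7 glutamate receptor genes and Gabbr2 on every assigned array, by age (x axis), with GFP cells in green left of all live cells in purple. Points are arrays, long ticks are means and whiskers are SD over 3 arrays, or 2 for GFP cells at E14.5. Grm7 lies higher in GFP cells at both early ages, Gria2 lies lower at each age, the GFP points of Gria1, Gria4, Grin2b and Grm5 lie well below the all live points early and among or near them late, and Grm3 and Gabbr2 end higher in GFP cells.

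Of the nicotinic receptor genes, Chrna3, the alpha subunit of autonomic ganglia, separated the sorts most. It stood at 8.20, 7.88 and 8.34 against 10.01, 10.12 and 10.17 at E13.5, at 7.18 and 7.56 against 9.83, 9.67 and 9.19 at E14.5, and at 6.73, 6.69 and 6.64 against 7.77, 7.41 and 7.78 at the late age. The sorts did not overlap, and Chrna3 was lower by -1.96 ± 0.15, -2.19 ± 0.17 and -0.96 ± 0.15 (adjusted p of 1.32e-07, 1.44e-07 and 0.000544). Chrna7, which forms channels on its own, was lower by -0.26 ± 0.08 and -0.35 ± 0.09 at the early ages. The first call was lost without any of 5 of the 6 arrays of that age, GFP replicate 3 being the exception (adjusted p up to 0.162), and the second without GFP replicate 1 (0.0642), GFP replicate 2 (0.0988) or all live replicate 3 (0.0628). Chrnb2, the common beta subunit in brain, was lower at E14.5 by -0.66 ± 0.17 (adjusted p = 0.00954), and not without GFP replicate 1 (0.0725) or 2 (0.0557). Chrna5, an accessory subunit, was lower at E13.5 by -0.57 ± 0.17 (adjusted p = 0.0226, and up to 0.0888 without GFP replicate 1 or 2 or all live replicate 1 or 3). Chrna4, the usual partner of Chrnb2, was lower at the late age by -0.41 ± 0.12 (adjusted p = 0.039). Its value without GFP replicate 3 of that age, the E18.5 array, which lay lowest, was 0.122. Without all live replicate 1 it was 0.0874, and without all live replicate 3, also E18.5, it was 0.148. Leaving out any 1 of 5 arrays of other ages also brought it to 0.05 or just above, so it sits at the threshold. The muscle-type genes Chrna1, Chrnb1, Chrnd, Chrne and Chrng were not called at any age, and neither were skeletal muscle markers.

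**Figure D4:**
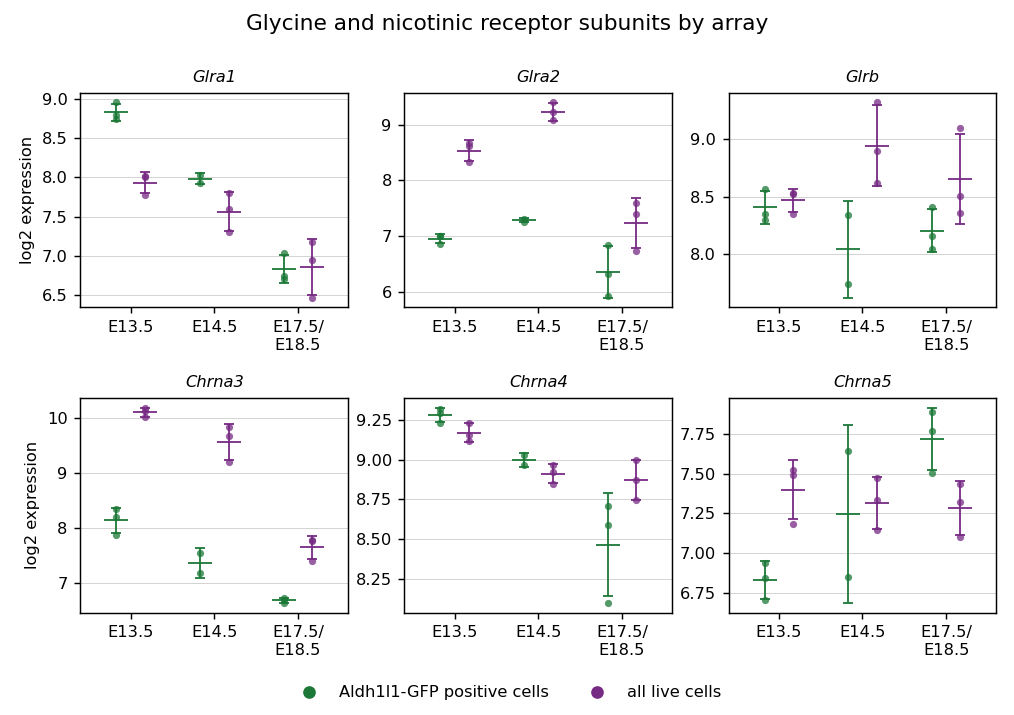
Log2 expression (y axis, with a range of its own in each panel) of 3 glycine and 3 nicotinic receptor genes on every assigned array, by age (x axis), with GFP cells in green left of all live cells in purple. Points are arrays, long ticks are means and whiskers are SD over 3 arrays, or 2 for GFP cells at E14.5. Glra1 falls with age in both sorts and starts higher in GFP cells, Chrna3 falls in both and stays lower in GFP cells, and the 2 GFP arrays of E14.5 lie far apart for Chrna5 and Glrb.

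With age, receptor genes changed within GFP cells. From E13.5 to the late age 24 were called, 18 higher and 6 lower at the late age, beside 16.3% of all genes, 7.34% higher and 8.98% lower. Between E13.5 and E14.5 there were 12 calls, 10 higher and 2 lower at E14.5, beside 1.50% of all genes, 0.912% higher and 0.589% lower. That count rests on the GFP arrays: it was 1 without GFP replicate 1 of E14.5, 3 without replicate 2 of E14.5, 6 without replicate 3 of E13.5 and 8 without replicate 1 of E13.5. Grm3 was the call that every such fit kept. In these fits the share of all genes called fell too. It was 0.883% without GFP replicate 3 and 0.782% without GFP replicate 1 of E13.5. Without a GFP array of E14.5 it was lower still. The other rises at E14.5 included those of Gabrb1 (1.15 ± 0.26), Gabra4 (0.95 ± 0.18), Grin3a (0.83 ± 0.17), Gria4 (0.81 ± 0.15), Grm7 (0.73 ± 0.14), Gabre (0.61 ± 0.12), Gabbr2 (0.60 ± 0.10) and Gabbr1 (0.50 ± 0.08), and the falls those of Glra1 (-0.85 ± 0.17) and Chrna3 (-0.77 ± 0.17). Between E14.5 and the late age there were 18 calls, 9 higher and 9 lower at the late age, beside 6.29% of all genes, 2.98% higher and 3.31% lower, and 11 without GFP replicate 2 of E14.5. The rises kept without any 1 array included those of Gabbr2, Grm5 (1.22 ± 0.18), Gria1 (1.16 ± 0.15), Gria4 (1.15 ± 0.15), Grm3 and Gabrg1 (0.84 ± 0.12), and the falls that of Glra1 (-1.15 ± 0.17). Of the 24 calls between E13.5 and the late age, 23 were kept without any 1 array, the exception being Gria3 (0.43 ± 0.13, adjusted p = 0.0355, and up to 0.128 without GFP replicate 1, 2 or 3 of E13.5 or GFP replicate 1 or 2 of the late age).

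The largest rises in GFP cells included those of Gabbr2, of the metabotropic glutamate genes Grm3 and Grm5 and of the AMPA gene Gria4. Gabbr2 rose by 2.50 ± 0.09 between E13.5 and the late age, or 5.67-fold (adjusted p = 3.46e-11), most of it after E14.5 (1.91 ± 0.10, adjusted p = 1.86e-08). Grm3 rose by 1.99 ± 0.13 (3.97-fold, adjusted p = 1.13e-08), with 1.11 ± 0.14 between E13.5 and E14.5 (adjusted p = 0.000449) and 0.88 ± 0.14 after it (adjusted p = 0.000815). Gria4 rose by 1.97 ± 0.13 and Grm5 by 1.64 ± 0.16 (adjusted p of 2.67e-08 and 1.48e-06). Among GABA-A subunits, Gabrb1 rose by 1.61 ± 0.23, Gabrg1 by 1.24 ± 0.11, Gabra4 by 1.21 ± 0.16, Gabrg3 by 1.19 ± 0.25 and Gabra2 by 0.98 ± 0.18. The other rises included those of Grin3a (1.11), Gria1 (1.09), Chrna5 (0.89), Gabbr1 (0.68), Grin2b (0.64), Grin2a (0.55), Grid1 (0.50) and Gria3. Among the 6 falls were those of Glra1, Chrna3, Gabrq, Chrna4 and Chrnb2. Glra1 fell by 2.00 ± 0.15 (adjusted p = 1.23e-07), to 6.83 ± 0.18 at the late age against 8.83 ± 0.11 at E13.5 (mean ± SD, n = 3 each). Chrna3 fell by 1.45 ± 0.15, Gabrq by 0.89 ± 0.16, Chrna4 by 0.82 ± 0.12 and Chrnb2 by 0.71 ± 0.15. In the same comparison 12 of 20 astrocyte and radial glia markers rose and 1 fell, and 11 of 23 pan-neuronal markers fell, and their part in these changes was not tested.

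In all live cells 21 receptor genes were called at the late age against E13.5, 15 higher and 6 lower at the late age, beside 20.2% of all genes, 10.2% higher and 9.99% lower. Gabrg1 rose most, by 3.04 ± 0.11 or 8.23-fold (adjusted p = 1.02e-11), and further rises were those of Gabrb1 by 2.33 ± 0.23, Gabrg3 by 1.60 ± 0.25, Gabra4 by 1.44 ± 0.16, Gabbr2 by 1.44 ± 0.09 and Grm3 by 1.14 ± 0.13. Chrna3 fell most, by 2.45 ± 0.15 (adjusted p = 7.31e-09), and further falls were those of Glra2 by 1.30 ± 0.21, Glra1 by 1.07 ± 0.15, Grik2 by 0.74 ± 0.10 and Chrnb2 by 0.70 ± 0.15. Both sorts rose in 12 genes, beside 4.05% of all genes. Both fell in 4, among them Chrna3, Chrnb2 and Glra1, a count near the 4.58% of all genes. Of the 21 calls in all live cells, 17 were kept without any 1 array. Gabra2 and Grin3a, both among the 12, lost theirs without any of 12 arrays (adjusted p up to 0.22) and of 3 arrays (up to 0.136), Grik1 lost it without any of 3 (up to 0.0768), and Gabrq lost it too. Cell type markers moved on the all live arrays in the same comparison: 16 of 20 astrocyte and radial glia markers, 11 of 12 oligodendrocyte precursor markers, 10 of 10 microglial and 12 of 13 endothelial and mural markers rose, 14 of 23 pan-neuronal markers fell and 1 rose, and Aldh1l1 itself rose by 1.42 ± 0.12. The part of these in the receptor changes was not tested. Oligodendrocyte precursor markers averaged 9.18 to 9.56 on the late all live arrays, against 7.92 to 8.03 at E13.5.

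The change with age itself differed between GFP and all live cells for 15 receptor genes, beside 4.62% of all genes. For 11 of them, beside 1.62%, the difference of GFP cells from all live cells moved upward with age, and for 4, beside 3.00%, downward. Grm5 moved most upward (1.40 ± 0.22, adjusted p = 0.00128), as it rose by 1.64 ± 0.16 in GFP cells and stood at 0.24 ± 0.16 in all live cells, which was not called. Gria4 moved by 1.36 ± 0.19 (adjusted p = 0.000408), Gabbr2 by 1.06 ± 0.13 (adjusted p = 0.000143), Grin2b by 0.98 ± 0.20 (adjusted p = 0.00854) and Grm3 by 0.85 ± 0.18 (adjusted p = 0.00888). Chrna3 moved by 1.00 ± 0.22, with a fall of 1.45 ± 0.15 in GFP cells and of 2.45 ± 0.15 in all live cells. Its late GFP values, 6.64 to 6.73, lay below every array median, and the part of low signal in its change was not tested. Gabrg1 moved most downward (-1.80 ± 0.15, adjusted p = 3.48e-06), as it rose in all live cells by more than in GFP cells. Gabrq (-1.37 ± 0.23, adjusted p = 0.00186) rose in all live cells by 0.48 ± 0.16 and fell in GFP cells. That rise in all live cells was weak (adjusted p = 0.045) and was lost without any of 9 arrays, up to an adjusted p of 0.24. Glra1 moved by -0.93 ± 0.22, and its late values in both sorts, 6.47 to 7.17, also lay below every array median. The sort marker Aldh1l1 moved downward too, by -1.22 ± 0.17 (adjusted p = 0.000456). It is among the 10 of 20 astrocyte and radial glia markers that moved downward, while 3 moved upward. The part of that narrowing in the receptor results was not tested.

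**Figure D5:**
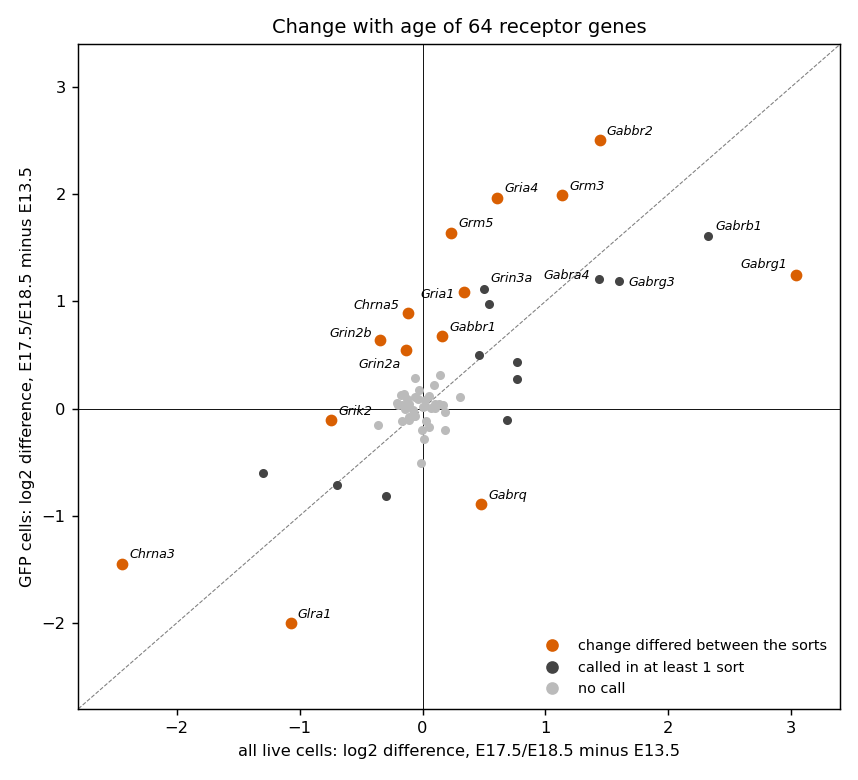
Change between E13.5 and the late age (log2, late minus E13.5) of 64 receptor genes in GFP cells (y axis) against all live cells (x axis), with 1 point per gene and a dashed line where both are equal. Orange points are 14 genes whose change differed between the sorts, dark points other genes called in at least 1 sort, and light points genes with no call. Grm5, Gria4, Gabbr2 and Grm3 lie above the line, and Gabrg1 and Gabrq below it.

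Of these 15, 5 lost the call without 1 array. Grin2a (0.69 ± 0.18, adjusted p = 0.0321) lost it without any of 8 arrays, up to 0.0907, and with quantile normalization. Gria1 (0.75 ± 0.19, adjusted p = 0.0268) lost it without any of 6, up to 0.0755. Chrna5 (1.01 ± 0.24) lost it without GFP replicate 2, all live replicate 1 or all live replicate 3 of E13.5, up to 0.0548. Glra1 lost it without GFP replicate 1 or all live replicate 3 of E13.5, up to 0.0591, and Grik2 (0.64 ± 0.15) without replicate 3 of either sort at E13.5, up to 0.0583. Gabbr1 (0.52 ± 0.11, adjusted p = 0.00823) kept it.

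Proteins that assemble, anchor or modulate these receptors were read from 4 lists. The list of 20 AMPA and kainate receptor auxiliary genes also holds genes for partners of delta receptors. At E13.5, 8 of its genes were lower and none higher in GFP cells. At E14.5, 11 were lower and 1 higher, and at the late age 4 were lower and none higher. These counts stand against the shares of all genes given above. Cacng2 (stargazin), which brings AMPA receptors to synapses, was lower by -1.71 ± 0.16 at E13.5 (adjusted p = 6.32e-07) and by -1.95 ± 0.18 at E14.5. Neto1, a kainate receptor auxiliary subunit, was lower by -2.02 ± 0.13 at the late age (adjusted p = 4.63e-08). Of 20 excitatory scaffold genes, 6, 7 and 1 were lower and 1, 1 and 0 higher. Of all genes, 8.0%, 8.22% and 4.68% were lower and 11.1%, 10.3% and 4.61% higher. The 1 scaffold gene lower at the late age is near its share, and the 1 higher at each early age lies below its share. The lowest scaffold gene at each age was Dlg2, by -1.77 ± 0.20, -2.76 ± 0.22 and -1.53 ± 0.20. Among 18 GABA and glycine receptor partners, 3 were lower and 3 higher at E13.5, 5 and 3 at E14.5, and 4 and 1 at the late age. These stand beside the same shares of all genes, and the 1 higher at the late age is near its share. Gphn, the gephyrin scaffold of glycine and GABA-A receptors, was higher at E14.5 by 0.35 ± 0.09 and at the late age by 0.28 ± 0.08 (adjusted p of 0.0115 and 0.0387), and Lhfpl3, also an oligodendrocyte precursor marker of these lists, was lower at the late age by -1.71 ± 0.13. Of 13 genes that serve nicotinic receptors, Agrn and Lrp4, the nerve-derived signal and the receptor for it at the neuromuscular junction, were higher at all 3 ages, Lrp4 by 0.81 ± 0.11, 1.14 ± 0.12 and 0.74 ± 0.11. That list had 3, 2 and 2 higher and 2, 3 and 1 lower, beside the same shares of all genes.

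The authors' deposited comparison tables list 22 receptor genes at E13.5, of which 16 have their adjusted p under 0.05, 8 at E14.5, none under 0.05, and 8 at the late age, 5 under 0.05. Every one of these has the sign found here, but the values come from the same arrays, so this is no independent evidence. At E13.5 and at the late age the listed folds equal the differences found here. At E14.5 the folds in the authors' deposited table are smaller, and all 552 folds of that table equal the mean over 3 GFP arrays that include the array titled mislabeled, within 0.001. None of the 552 equals the fold over the 2 assigned arrays.

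In the authors' deposited coexpression tables, which rest on the same 17 arrays and so are no independent evidence, 12 of the 69 receptor genes (17.4%) belong to a module by the strict assignment, beside 5.48% of 23874 named probe sets. Gabbr2, Gabrb1, Gabrg1 and Grm3 are in the yellow module, which the authors tie to late astrocytes. Glra2 is in the blue module, marked as not astrocytic. Gabra3 and Grik1 are in the purple module, Gria3 in the green and Glra1 in the black. By the lenient assignment 32 receptor genes (46.4%) belong to a module, beside 36.8%.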

How the data were processed

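RNA of sorted cells was amplified, labelled with biotin and hybridised to arrays, per the labels' protocols. The authors' deposited log2 expression values for 35556 probe sets on 18 arrays were used as they stand. The submitters' processing notes name oligo, RMA, limma and the build mm9, with no version given in the sources used here. Probe sets are numbered, so names were taken by matching values to the authors' deposited tables: all 1875 genes of the E13.5 table, all 552 of the E14.5 table and all 23890 rows of the coexpression table matched within 1e-08. The match to the last used the authors' deposited kME score, a gene's correlation with a module, which held on the unlogged values. Modules are those of the authors' strict and lenient assignment columns. Of the rows matched by kME, 135 fitted several probe sets, none of them of a receptor gene. Symbols were updated through a RefSeq table (GRCm38.p6): 17249 were current, 3380 were older symbols and 3245 were not in it. Of several probe sets for a gene, as in 81 genes including Grik2, the brightest was kept, which left 23787 genes. For a receptor gene, a probe set found by the name search came before brightness. The authors' deposited comparison tables give a linear ratio (fold of GFP over whole cord), a t score and a p-value, raw and adjusted. In the E13.5 and the E14.5 files, 3 value columns each could not be matched to samples and were not used.

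Some genes are not reported here one by one but are in all counts. Groups came from the labels. All 17 assigned arrays were fitted with limma 3.58.1 under R 4.3.3 as 6 group means (lmFit, then eBayes on 8 contrasts). The residual degrees of freedom were 11 and the prior ones 5.433. P-values had a Benjamini-Hochberg adjustment over all genes, with a threshold of 0.05. The fit was tested on simulated data. Intervals cover 95%. Arrays have no read depth, and their number limits precision. Within groups the arrays correlated at 0.985 to 0.994. No scan date or batch is given in the sources used here. The receptor genes and all lists were chosen with earlier results of these data known. By the rule for named genes, full values go per contrast to the 8 largest rises and 8 largest falls among called receptor genes whose groups do not overlap, and the gamma, AMPA, glycine and NMDA subunits are set beside each other. From the lists, up to 3 of the largest called changes could be named. The alternatives were a median shift, quantile normalization, a filter on dim genes (below the 40th percentile), the mean of a gene's probe sets, a spread that follows intensity, only the groups compared, no E18.5 arrays, a replicate block, and each array left out.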

Additional observations from a re-analysis of the deposited data

Results flagged for a closer look

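For 15 receptor genes, 14 of them given here, the difference between GFP and all live cells at the late age differed from that at E13.5, by a test of the difference itself (limma, adjusted over all genes). Values are log2, late minus E13.5. The difference moved downward for Gabrg1 (-1.80), Gabrq (-1.37) and Glra1 (-0.93). It moved upward for Grm5 (1.40), Gria4 (1.36), Gabbr2 (1.06), Chrna5 (1.01), Chrna3 (1.00), Grin2b (0.98), Grm3 (0.85), Gria1 (0.75), Grin2a (0.69), Grik2 (0.64) and Gabbr1 (0.52). The same measure was -1.22 for the sort marker Aldh1l1. No group could be searched for a single distant array, because each holds 3 arrays or fewer.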

How the results depend on the processing

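No called direction of the 110 gene results followed turned round in 2738 recalculations, but many of these could not turn it. The log2 difference stays as it is when an array of another group is left out or only the groups compared are fitted. It also stays with the dim-gene filter and the spread that follows intensity. The 110 were picked as called and, except for the change of the difference, without overlap. Of the recalculations, 101 were no longer called, 77 of them without 1 array and 12 with only the groups compared. With only the groups compared, the calls between E14.5 and the late age in GFP cells came to 9, against 18, and the share of all genes called fell to 2.30% there, against 6.29%, and to 4.31% for GFP against all live cells at the late age, against 9.29%. Leaving out each array in turn gave 21 to 30 receptor calls for GFP against all live cells at E13.5, 25 to 33 at E14.5 and 14 to 18 at the late age. In GFP cells it gave 1 to 14 for E14.5 against E13.5, 11 to 18 for the late age against E14.5 and 23 to 25 for the late age against E13.5. It gave 17 to 23 in all live cells and 11 to 16 for the change of the difference with age. Shares of all genes called dropped most without a GFP array of E14.5: to 12.3% for GFP against all live cells at E14.5 and to 2.78% for the late age against E14.5 without replicate 2, and to 0.429% for E14.5 against E13.5. Without the E18.5 arrays that last share, 1.50% over all arrays, was 2.35%. The filter on dim genes, which tests fewer genes, raised the shares to 30.7%, 28.3%, 14.9%, 3.07%, 10.8%, 26.2%, 31.0% and 8.13% over the 8 contrasts in the order of the preceding counts.

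Same-numbered arrays of the 2 sorts or of 2 ages deviated from their group means with correlations of -0.081 to 0.124, so the numbers were not taken to pair the samples. With the replicate number as a block, receptor calls were 28, 27 and 18 for GFP against all live cells at the 3 ages, 12, 17 and 26 for E14.5 against E13.5, late against E14.5 and late against E13.5 in GFP cells, 19 in all live cells and 14 for the change of the difference. Between E14.5 and the late age in GFP cells Gabra2 had 0.0585 to 0.0925 with a median shift, quantile normalization or the block. Of the 27 receptor genes below the median of all probe sets on every array, 4 were called for GFP against all live cells at an age, beside 10.1% of all genes as dim, and of the 16 above it 13, beside 37.6%. The part of low signal in this was not tested.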

Other observations

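Many receptor genes lie beside each other on a chromosome, in the order of the RefSeq table (GRCm38.p6), and neighbours did not always go the same way. On chromosome 5 lie Gabrg1, Gabra2, Gabra4 and Gabrb1. At E13.5 these differed between GFP and all live cells by 2.47, -0.32, 0.67 and 1.36 on the log2 scale, with Gabra2 not called. Gabra4 and Gabrb1 start 387 bases apart on opposite strands, with transcribed parts that overlap. On chromosome 7 the neighbours Gabrg3 and Gabra5 were split at E14.5, with 0.88 and -0.98, both called. Without GFP replicate 2 of that age the differences were 0.41 and -0.88, and neither call held, as given above. Glra1 and Gria1, both on chromosome 11 with 1 protein-coding gene between them, gave 0.90 and -0.84 at E13.5.

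The array that its title calls mislabeled has no group, and its values are given beside the range of the other arrays of E14.5. Gabrg1 stood at 7.55 on it, with 10.37 to 10.47 on the GFP arrays and 8.42 to 8.67 on the all live arrays. Chrna3 stood at 9.73, with 7.18 to 7.56 and 9.19 to 9.83, and Gria2 at 11.64, with 9.87 to 9.94 and 11.43 to 11.76. Grm5 stood at 10.31, with 8.23 to 8.26 and 9.84 to 9.95.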
